A study of Mus musculus with 9 samples.

Results

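The genes described here are 10 transcriptional targets of the tumor suppressor p53, namely Mdm2, Ccng1, Trp53inp1, Zmat3, Sesn1, Gdf15, Phlda3, Bbc3, Bax, and Eda2r. They were chosen by name, as well-known p53 targets, with earlier results of these data known. They make up 10 of the 50686 mouse genes in the table of read counts. RNA-Seq was performed on 9 libraries in 3 groups of 3, namely control MC3T3-E1 osteoblasts without treatment, MC3T3-E1 osteoblasts that received SB216763 at 10 μM over 14 days, and untreated mouse pulmonary endothelial cells (ECs). MC3T3-E1 is an established osteoblast line from mouse, and the small molecule SB216763 inhibits the kinase GSK3. The ECs were isolated by flow sorting, and the time in culture of the control osteoblasts is not given in the sources used here. The replicates are separate libraries, and nothing in the labels says that they came from separate cultures or animals, so the p-values measure the spread between these libraries, which may be technical.

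Each library held between 30990107 and 68946333 counts. Levels are given in CPM, the counts scaled to a common library total after TMM normalization in edgeR. All 10 genes passed the expression filter and were tested among 15531 genes, in one fit of the 9 libraries with edgeR's quasi-likelihood test. A gene was called higher or lower at a Benjamini-Hochberg FDR under 0.01 over all genes tested, and the study's fold threshold, a log2 fold change of 2 or more in either direction, is given as a second, stricter rule. The groups were checked on 5 osteoblast markers (Sp7, Runx2, Alpl, Col1a1, and Ibsp) and 5 endothelial markers (Cdh5, Pecam1, Kdr, Tie1, and Emcn). The endothelial markers summed to between 5999.8 and 6149 CPM in the EC libraries, against at most 2.71 CPM in control and 2.55 CPM in treated osteoblasts. The osteoblast markers summed to between 20086 and 28683 CPM in control osteoblasts, between 2824 and 2973 CPM in treated osteoblasts, and between 28.9 and 38.3 CPM in the EC libraries, most of it Col1a1 in the osteoblasts. All 5 were lower in ECs than in control osteoblasts. Against treated osteoblasts 4 were lower, whereas Alpl was higher in ECs, at 1.71 ± 0.0248 CPM against 0.468 ± 0.182 CPM (SD, n = 3). Of 5 lung epithelium markers, none had a mean above 1 CPM in any group, and of 5 leukocyte markers only Cd68 did, at 46.6 ± 0.986 CPM in ECs and 1.63 ± 0.0822 CPM after treatment, with Cd3e at 0 counts in every library. Of 5 mural cell markers, Pdgfrb was higher after treatment, from 254 ± 20.97 to 746 ± 7.84 CPM, as was Des, whereas Cspg4 was lower, from 33.2 ± 9.26 to 3.14 ± 0.462 CPM, and Rgs5 and Myh11 had means under 1 CPM in every group. Their sum was between 262 and 321 CPM in control osteoblasts, between 753 and 768 CPM in treated osteoblasts, and between 6.48 and 6.73 CPM in the EC libraries. The part of these other markers in the results below was not tested. In such bulk libraries, fewer cells that express a gene and less RNA per cell cannot be told apart.

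p53 is a transcription factor that is held at a low level in unstressed cells and is stabilized by DNA damage, oncogene activity, and other stress. It is controlled mainly through the stability and modification of the protein, by the ubiquitin ligase MDM2, which p53 itself induces in a feedback loop. Once active, p53 binds DNA as a tetramer and induces genes of cell cycle arrest, DNA repair, metabolism, and cell death, and it restrains growth in osteoblasts as in many other cells. Several of its targets also respond to other transcription factors, and Sesn1, Bbc3, and Bcl2l11 are known targets of FOXO factors as well.

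The DNA that p53 recognizes consists of a pair of half-sites, each with 3 purines, a core of C, A or T, A or T, and G, and 3 pyrimidines. This consensus reads the same on both strands. It was searched in the RefSeq promoter windows of GRCm38.p6, which run from 250 bases before to 50 bases after a transcription start. Windows were found for 8 of the 10 genes, with 12 windows in all, and the promoter set used here held none for Trp53inp1 and Zmat3. The window of Ccng1, on the minus strand at chr11:40755237-40755536, held a pair of half-sites that starts 195 bases before the transcription start, with 1 mismatch. It is shown as the only pair without spacer found among these windows. The windows of Sesn1, on the plus strand at chr10:41810324-41810623 and chr10:41887189-41887488, and the window of the first of 3 starts of Bbc3, on the plus strand at chr7:16309333-16309632, are shown because these genes carried the changes with SB216763 described below. Capitals mark an exact half-site of 10 bases or a pair of 20 bases, without spacer, with at most 2 mismatches outside the C and G of each core.
Ccng1: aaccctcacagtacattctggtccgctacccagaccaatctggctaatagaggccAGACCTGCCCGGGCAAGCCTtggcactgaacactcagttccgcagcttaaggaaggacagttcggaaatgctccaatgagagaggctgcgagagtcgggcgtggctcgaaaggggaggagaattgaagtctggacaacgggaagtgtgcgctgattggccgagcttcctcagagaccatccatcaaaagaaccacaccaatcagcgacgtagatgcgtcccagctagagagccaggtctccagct
Sesn1, first start: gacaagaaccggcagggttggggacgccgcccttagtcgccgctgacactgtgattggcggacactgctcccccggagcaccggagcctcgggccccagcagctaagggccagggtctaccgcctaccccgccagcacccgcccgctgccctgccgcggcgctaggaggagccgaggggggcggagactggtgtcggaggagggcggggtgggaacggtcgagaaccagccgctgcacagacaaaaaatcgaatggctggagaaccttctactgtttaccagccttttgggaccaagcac
Sesn1, second start: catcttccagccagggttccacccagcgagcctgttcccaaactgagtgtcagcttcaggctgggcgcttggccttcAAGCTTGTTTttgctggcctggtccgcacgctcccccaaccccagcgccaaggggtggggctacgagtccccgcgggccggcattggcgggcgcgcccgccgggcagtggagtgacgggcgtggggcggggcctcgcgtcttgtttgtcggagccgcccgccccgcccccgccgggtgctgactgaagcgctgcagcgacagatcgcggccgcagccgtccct
Bbc3, first start: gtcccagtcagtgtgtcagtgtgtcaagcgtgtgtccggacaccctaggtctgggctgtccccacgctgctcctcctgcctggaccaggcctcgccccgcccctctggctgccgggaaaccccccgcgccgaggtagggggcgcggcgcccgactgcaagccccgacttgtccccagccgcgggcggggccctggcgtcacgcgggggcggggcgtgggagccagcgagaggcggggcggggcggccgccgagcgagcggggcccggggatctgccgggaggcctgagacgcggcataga

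Of the 12 windows, 4 held an exact half-site, namely those of Mdm2 (GAACTTGCCT, 186 bases before the start), Ccng1 (GGGCAAGCCT, 185 bases before the start and part of its pair), Bax (AGGCAAGCTT, 201 bases before the start), and the second start of Sesn1 (AAGCTTGTTT, 173 bases before the start). An exact half-site is found in 8.36% of all 32851 promoter windows. A pair without bases between its half-sites and with at most 2 mismatches is found in 0.326% of all windows, and among the 12 in that of Ccng1 only. Pairs with a spacer between the half-sites were not searched. For reference, the windows of Cdkn1a, the p21 gene that is the classical target of p53 in cell cycle arrest, were also read. The window at chr17:29090729-29091028, on the plus strand, held the pair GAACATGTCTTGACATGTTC at chr17:29090928-29090947. This pair begins 51 bases before the transcription start of that window and has 1 mismatch. The window of the start farther downstream, at chr17:29093519-29093818, held no exact half-site and no pair. A match describes the letters of these windows and not the binding of p53. No window of Gdf15, Bbc3, Phlda3, or Eda2r held these letters, and sites farther from the start, as in introns, were not searched.

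Between control and SB216763-treated osteoblasts, most of the 10 genes stayed close to their control level, with Sesn1 and Bbc3 as the exceptions. Sesn1 rose 5.74-fold and Bbc3 fell by 1.02 on the log2 scale, from 33.9 ± 1.01 to 16.8 ± 1.03 CPM (SD, n = 3). Phlda3, Trp53inp1, and Zmat3 were also called, with absolute log2 fold changes between 0.15 and 0.32. In all, 3 genes were called higher and 2 lower. Over all genes tested, 32.9% were called higher, 32% lower, and 64.9% in either direction, so 5 of 10 was no more than the background share. The median absolute log2 fold change was 0.18 over the 10 genes and 0.55 over all genes tested. The log2 fold change lay within 0.5 of 0 for 8 of the 10 genes and for 46.3% of all genes tested. Unlike the 10 genes, the genes tested include some kept through the ECs with few counts in the osteoblasts, such as Cdkn2a. These comparisons with all genes are therefore not like for like. Sesn1 alone passed the fold threshold, which 3.81% of all genes passed upward and 5.84% downward. With a log2 fold change of 1 or more, Sesn1 was joined by Bbc3 in the other direction, where 11.1% of all genes passed upward and 13% downward. When libraries were scaled by their totals alone, the median gene shifted up by 0.20 on the log2 scale. Under that scaling, 6 of the 10 genes were called higher and 1 lower, and the share of all genes called is not given here. Without control replicate 3, SB216763 replicate 1, or SB216763 replicate 3, the number called was 3 each time.

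**Figure D1:**
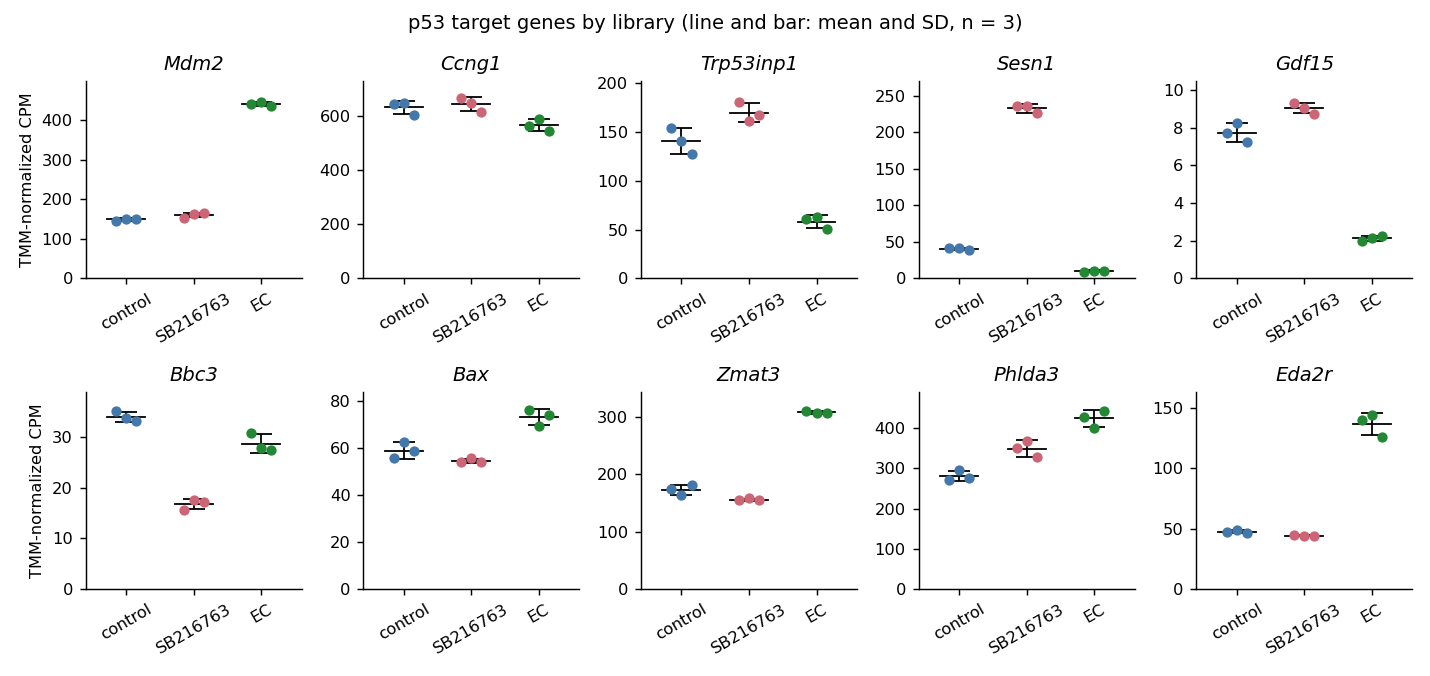
TMM-normalized CPM of the 10 p53 target genes in each library of the control osteoblasts, SB216763-treated osteoblasts, and ECs, with each axis starting at 0. Points are libraries, and the line and bar show the mean and SD (n = 3). Sesn1 stands at 233 ± 5.87 CPM after treatment against 40.5 ± 1.496 CPM in the controls, and Mdm2 stands at 441 ± 4.92 CPM in ECs against 149 ± 3.23 CPM in the controls.

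Mdm2, Ccng1, Trp53inp1, and Zmat3 act on p53 itself or on its output. Mdm2 encodes the ubiquitin ligase that degrades p53 (chromosome 10, 117688875 to 117710758, minus strand, in GENCODE M21 on GRCm38). Mdm2 was at 145, 151, and 151 CPM in the control libraries and 153, 162, and 164 CPM in the treated libraries. The treated libraries all lay above the controls, by a small margin. The log2 fold change of Mdm2 was 0.10 (95% interval 0.0057 to 0.19, edgeR adjusted p = 0.0536), which did not pass the FDR. Ccng1 encodes cyclin G1, which recruits the phosphatase PP2A to MDM2 (chromosome 11, 40748552 to 40755311, minus strand). Ccng1 was at 646, 649, and 604 CPM in the controls and 667, 648, and 617 CPM after treatment, and these groups overlapped. Its log2 fold change was 0.03 (95% interval -0.09 to 0.14, edgeR adjusted p = 0.684), and its sign turned without control replicate 3 (-0.02) or SB216763 replicate 1 (-0.0068).

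Trp53inp1 encodes a stress-induced nuclear protein that promotes phosphorylation of p53 and also takes part in autophagy (chromosome 4, 11156431 to 11174379, plus strand). Trp53inp1 went from 154, 141, and 127 CPM in the control libraries to 180.2, 161, and 167 CPM in the treated libraries. Every treated library lay above every control library. The log2 fold change was 0.27 (SE 0.08, edgeR adjusted p = 0.00533), and the call was lost without control replicate 3 (adjusted p = 0.0406), SB216763 replicate 1 (adjusted p = 0.0362), or SB216763 replicate 3 (adjusted p = 0.0117). Zmat3 encodes a zinc finger protein that binds RNA and regulates splicing (chromosome 3, 32334792 to 32366014, minus strand). Zmat3 went from 174, 163, and 182 CPM to 155, 158, and 155 CPM, with all treated libraries below the controls. Its log2 fold change of -0.15 (SE 0.05, edgeR adjusted p = 0.00789) was near the threshold. The call was lost without any one of the libraries other than control replicate 2, with adjusted p from 0.0104 without EC replicate 2 to 0.0387 without control replicate 3, and the direction turned with scaling by library totals alone (log2 fold change 0.05).

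Sesn1, Gdf15, and Phlda3 link p53 to metabolism, secreted signals, and survival signaling. Sesn1 encodes sestrin 1, which restrains the growth kinase complex mTORC1 when amino acids are low and counters oxidative stress (chromosome 10, 41809935 to 41908424, plus strand). Sesn1 went from 41.2, 41.6, and 38.8 CPM in the control libraries to 237, 236, and 226 CPM in the treated libraries, and was at 9.23, 10.8, and 10.8 CPM in the EC libraries. The groups were far apart, with the lowest treated library above 5 times the highest control library. The log2 fold change was 2.52 (SE 0.05, edgeR adjusted p = 1.12e-15), larger in absolute size than that of 92.6% of genes tested. It stayed between 2.48 and 2.54 when each library was left out in turn. The counts are summed over the transcripts of the gene, so the transcription starts of Sesn1 shown above cannot be told apart in them.

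Gdf15 encodes a secreted stress cytokine of the TGF-β superfamily that signals through the brain receptor GFRAL (chromosome 8, 70629393 to 70632456, minus strand). Gdf15 was at 7.73, 8.25, and 7.22 CPM in the controls and 9.32, 9.07, and 8.74 CPM after treatment, from 208 to 491 counts in each of these libraries. The treated libraries lay above the controls, and the log2 fold change of 0.22 (95% interval 0.05 to 0.38, edgeR adjusted p = 0.0180) did not pass the FDR of 0.01. Phlda3 encodes a protein with a pleckstrin homology domain that competes with the kinase AKT for membrane lipids (chromosome 1, 135766119 to 135769136, plus strand). Phlda3 went from 271, 295, and 275 CPM to 351, 369, and 327 CPM. All treated libraries were above the controls, by a log2 fold change of 0.32 (SE 0.06, edgeR adjusted p = 1.03e-04), and the call held without each library in turn, at values from 0.27 to 0.36.

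Bbc3, Bax, and Eda2r belong to the cell death branch. Bbc3 encodes PUMA, a BH3-only protein that binds the anti-apoptotic BCL2 proteins (chromosome 7, 16308393 to 16318205, plus strand). Bbc3 was at 35.02, 33.7, and 33.0 CPM in the control libraries and 15.6, 17.6, and 17.1 CPM in the treated libraries. The highest treated library lay well below the lowest control library. The log2 fold change of Bbc3 was -1.02 (SE 0.06, edgeR adjusted p = 3.48e-10), between -1.06 and -0.98 without each library in turn. Bax encodes the protein that opens the outer mitochondrial membrane in apoptosis (chromosome 7, 45461697 to 45466898, minus strand). Bax was at 55.5, 62.4, and 58.6 CPM in the controls and 54.1, 55.5, and 53.9 CPM after treatment, with overlap, and its log2 fold change was -0.11 (95% interval -0.22 to 0.001, edgeR adjusted p = 0.0695). Exons of Bax share 192 bases with the gene model Gm45808, which had 0 counts in every library. Eda2r encodes a receptor of the TNF receptor family for the ectodysplasin isoform A2 (chromosome X, 97333840 to 97377216, minus strand). Eda2r was at 47.7, 48.8, and 46.6 CPM in the controls and 44.5, 44.4, and 43.8 CPM after treatment, and the treated libraries lay just below the controls (log2 fold change -0.11, 95% interval -0.22 to 0.0014, edgeR adjusted p = 0.0705). Scaling by library totals alone turned the sign for Bax (0.09) and Eda2r (0.09), neither of them called. Across the 10 genes, the treated and control libraries did not overlap for 8, which 73.2% of all genes tested also showed.

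**Figure D2:**
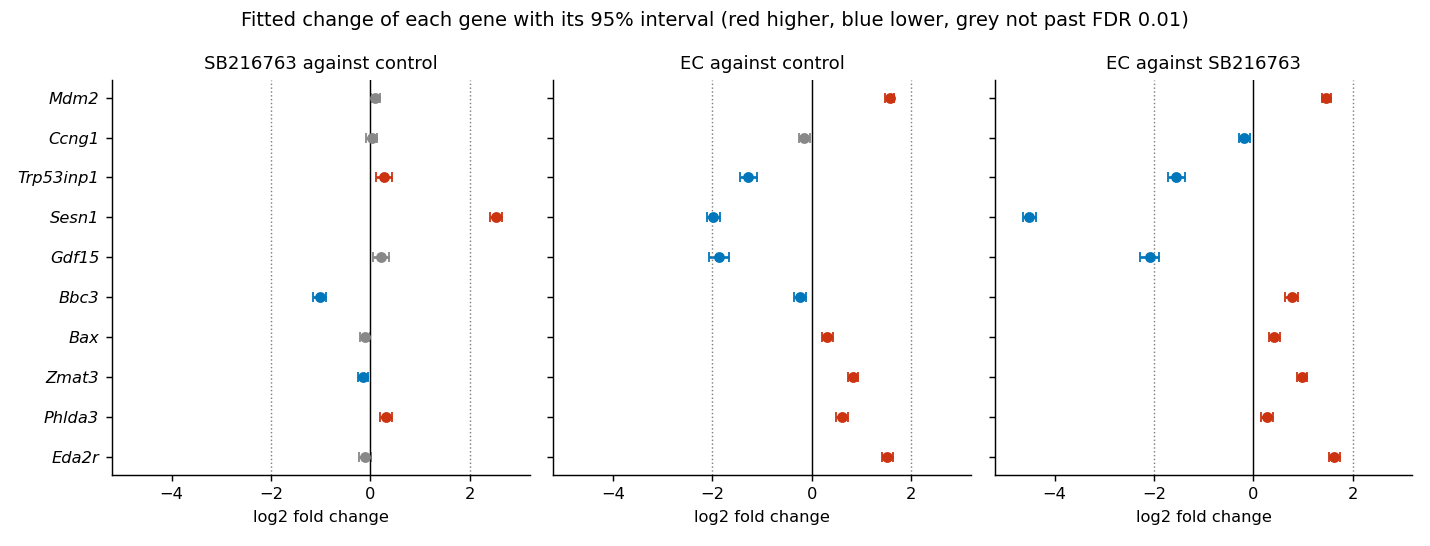
Log2 fold change of each of the 10 genes in the 3 comparisons, with 95% intervals from the fit of all 9 libraries. Dotted lines mark the threshold of 2 on the log2 scale in either direction. In the comparison of SB216763 with control, 8 of the 10 genes sit within 0.5 of 0, and Sesn1 at 2.52 is beyond the threshold.

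Expression of the p53 gene itself decreased with treatment. Trp53 was at 218, 223, and 209 CPM in the control libraries and 78.4, 82.3, and 80.0 CPM in the treated libraries, with a log2 fold change of -1.44 (SE 0.05, edgeR adjusted p = 1.27e-13). The groups were far apart, with all treated libraries below all controls. ECs were between them, at 158, 150.1, and 161 CPM. The level of the mRNA does not measure the amount or activity of the protein. Mdm4, the partner of MDM2 that blocks p53 activity, was at 95.2 ± 6.43 CPM in the controls and 105 ± 19.9 CPM after treatment (SD, n = 3, edgeR adjusted p = 0.192). Of the 20 genes listed as p53 and its regulators, 19 were tested, and 7 were higher and 7 lower after treatment. Of all genes tested, 32.9% were higher and 32% lower. Among the 19, Cdkn2a passed the filter only through the ECs. It had at most 1 count in each osteoblast library, too few to be called in this comparison. The lower genes with the largest changes were Chek1, a kinase of the replication checkpoint, Trp53, and Ppp1r13l, the p53 inhibitor iASPP. Chek1 went from 17.0 ± 1.23 to 1.91 ± 0.306 CPM and Ppp1r13l from 26.3 ± 0.594 to 10.5 ± 0.365 CPM (SD, n = 3). No regulator was higher by a log2 fold change of 1 or more.

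Other known p53 targets moved in both directions. Of 42 further targets, 40 were tested, and 16 were higher and 20 lower after SB216763 treatment. For comparison, of all genes tested, 32.9% were higher and 32% lower. Scaling by library totals alone, which shifted the median gene up by 0.20 on the log2 scale, gave 19 higher and 16 lower. The share of all genes called under that scaling is not given here. In the main fit, the median log2 fold change was -0.18 over these 40 genes and 0.01 over all genes tested. The median absolute log2 fold change was 0.74, against 0.55 over all genes. Cdkn1a was at 399, 415, and 379 CPM in the controls and 484, 489, and 453 CPM after treatment. Like Phlda3, Cdkn1a rose in every treated library by a small margin, with a log2 fold change of 0.26 (SE 0.05, edgeR adjusted p = 2.40e-04). Of the 9 targets of the cell cycle that were listed, 3 were higher and 5 lower. Gadd45a, a stress sensor of DNA repair and growth arrest, rose from 7.20 ± 0.826 to 94.7 ± 4.98 CPM, while the mitotic genes Ckap2 and Gtse1 fell from 95.7 ± 3.06 to 14.3 ± 0.800 CPM and from 40.2 ± 0.378 to 7.98 ± 0.664 CPM (SD, n = 3). Plk2, a polo-like kinase, fell from 76.0 ± 2.68 to 36.8 ± 0.874 CPM.

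Of the 5 targets of feedback and regulation, 2 were higher and 3 lower. Beside this count and those of the lists that follow, 32.9% of all genes tested were higher and 32% lower. The noncoding Trp53cor1, known as lincRNA-p21, rose from 3.08 ± 0.0817 to 8.40 ± 0.697 CPM, and Cop1, a ubiquitin ligase for p53, fell from 298 ± 12.3 to 129.9 ± 3.45 CPM (SD, n = 3). The noncoding Pvt1 fell from 25.0 ± 0.415 to 12.1 ± 0.752 CPM. Of 11 targets of cell death, 9 were tested, and 2 were higher and 6 lower. Trp53i11 rose from 0.149 ± 0.0524 to 18.5 ± 0.642 CPM, and Dram1, a lysosomal protein of autophagy, fell from 54.3 ± 0.648 to 26.5 ± 1.01 CPM. Pmaip1 had 0 counts in every library and Perp at most 1 count. Of the 6 targets of DNA repair, 3 were higher and 2 lower. Xpc, which recognizes DNA damage, rose from 29.9 ± 1.19 to 110.4 ± 2.87 CPM, Rrm2b, a ribonucleotide reductase subunit, from 15.4 ± 1.49 to 34.0 ± 1.21 CPM, and the translesion polymerase gene Polh fell from 65.8 ± 2.29 to 31.5 ± 1.04 CPM. Of the 11 remaining targets, 6 were higher and 4 lower. Among these, Ephx1, the microsomal epoxide hydrolase, rose from 251 ± 9.46 to 626 ± 25.8 CPM, and the metabolic genes Gls2 and Tigar fell from 5.33 ± 0.725 to 2.05 ± 0.354 CPM and from 12.1 ± 0.675 to 5.12 ± 0.178 CPM.

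**Figure D3:**
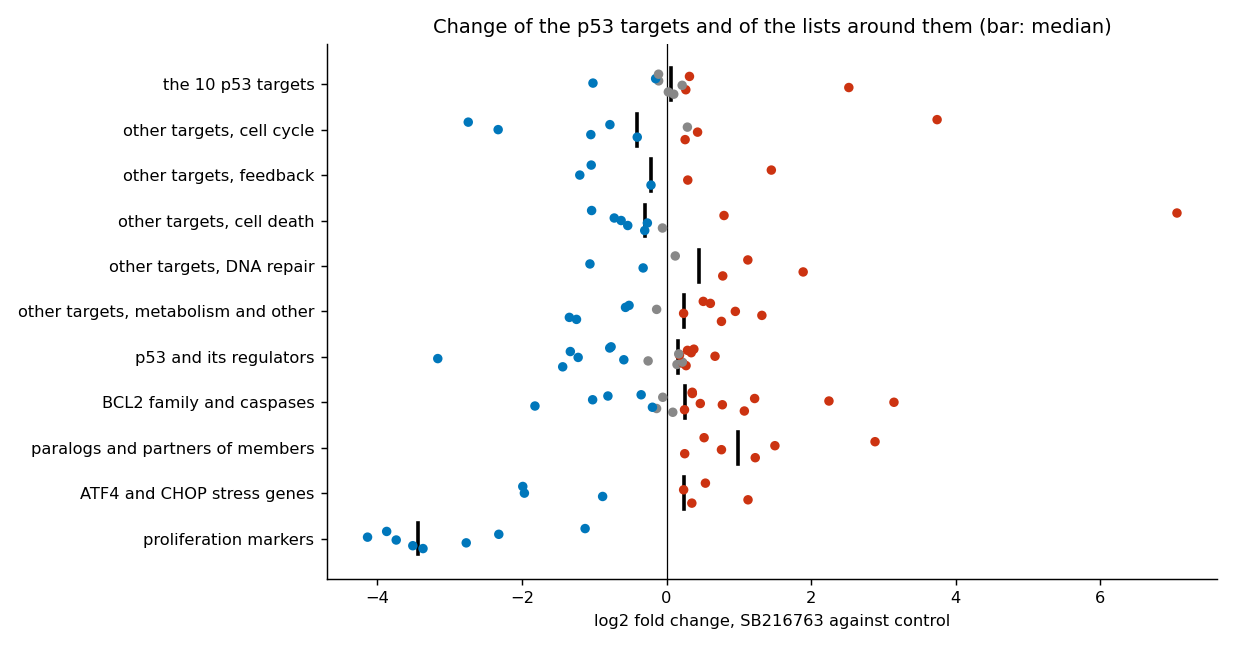
Log2 fold change between SB216763-treated and control osteoblasts for the 10 p53 targets and the lists around them, one point per gene, red for higher, blue for lower, and grey for not past an FDR of 0.01. Black bars are medians, and genes with at most 3 counts in every library of either group are left out. The 10 targets gather near 0 (median 0.06), and the 8 proliferation markers lie between -4.13 and -1.13.

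Proliferation genes fell in the same libraries. All 8 proliferation markers (Mki67, Top2a, Cdk1, Ccnb1, Ccna2, Mcm2, Mcm5, and Pcna) were lower after treatment, and their summed level went from between 1389 and 1441 CPM in the controls to between 227 and 243 CPM after treatment, against between 1668 and 1705 CPM in ECs. Ccna2, the cyclin of S phase and G2, fell from 131 ± 6.14 to 7.47 ± 0.470 CPM (SD, n = 3), Mcm5, a subunit of the replicative helicase, from 119 ± 5.01 to 8.13 ± 0.768 CPM, and Ccnb1, the mitotic cyclin, from 84.6 ± 3.60 to 6.35 ± 0.397 CPM. The part of this decrease in the levels of the 10 targets was not tested.

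Several partners of Bax and Bbc3 changed in both directions. Of 19 listed genes of the BCL2 family and the caspase cascade, 17 were tested, and 9 were higher and 5 lower after SB216763 treatment, beside 32.9% and 32% of all genes tested. While Bbc3 fell, Bmf and Bcl2l11, which encode the BH3-only proteins BMF and BIM, rose from 3.94 ± 0.140 to 34.8 ± 0.953 CPM and from 13.1 ± 1.38 to 62.3 ± 1.03 CPM (SD, n = 3). Casp9, the initiator caspase of the mitochondrial route, rose from 26.7 ± 0.918 to 62.2 ± 3.43 CPM. Bok, a relative of Bax, fell from 97.0 ± 4.81 to 27.5 ± 2.04 CPM, and Cycs, the cytochrome c gene, from 109 ± 2.32 to 53.8 ± 1.86 CPM. Bik and Hrk had 0 counts in both osteoblast groups and were not tested.

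The closest relatives of the 10 genes were examined next. Of 13 listed paralogs and partners, 7 passed the filter. Among these, Edaradd passed only through the ECs. It had 1, 2, and 0 counts in the controls and 0, 0, and 1 after treatment, too few to be called here. The other 6 were all higher after treatment at this FDR, where 32.9% of all genes tested were higher and 32% lower. They include Sesn2, which is also counted among the 42 further targets. The other sestrin genes rose with Sesn1. Sesn3 went from 211, 179.5, and 209.9 to 565, 559.9, and 572 CPM (log2 fold change 1.498, edgeR adjusted p = 1.51e-12), and Sesn2 from 106, 109, and 108 to 183, 192, and 172 CPM (log2 fold change 0.76, edgeR adjusted p = 6.12e-10). Phlda1, a paralog of Phlda3, rose from 1.81, 2.02, and 2.15 CPM in the control libraries to 15.8, 13.9, and 13.8 CPM in the treated libraries. Ccng2, the paralog of Ccng1, rose from 16.6 ± 0.569 to 38.8 ± 0.974 CPM (SD, n = 3). The remaining called paralogs were Trp53inp2 (log2 fold change 0.25), higher like Trp53inp1, and Zmat1 (0.52), opposite to Zmat3. Eda, which encodes the ligand of EDA2R, and Gfral and Ret, which encode the receptor of GDF15, did not pass the filter. Gdf15 and Sesn2 are also induced by the stress factors ATF4 and CHOP, and of 8 genes of that response, all tested, 4 were higher and 4 lower. Ddit3, the CHOP gene, rose from 48.6 ± 1.73 to 106 ± 0.752 CPM, whereas Asns and Trib3 fell from 478 ± 14.7 to 120.5 ± 7.60 CPM and from 107 ± 3.41 to 27.3 ± 2.30 CPM. Of the genes named around the 10 targets, Cdkn1a, Gadd45a, Trp53cor1, Pvt1, Rrm2b, Tigar, Gls2, Casp9, Phlda1, Ddit3, and Ccna2 have exons that overlap genes on the opposite strand. The strand setting of the counting is not given in the sources used here, so reads from the shared exons cannot be told apart and these values are less certain. The concern is not equal among them. Over all libraries, Mars, opposite Ddit3, had 52417 counts against 22483, and Spryd4, opposite Gls2, had 7135 against 1444. Exosc9, opposite Ccna2, had 10065 against 36206, whereas Gm28592, opposite Phlda1, had 0.

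Most of the 10 genes differed between ECs and osteoblasts, as did most of all genes tested. Against the control osteoblasts, 5 of the 10 genes were called higher in ECs and 4 lower, where 39% of all genes tested were higher, 37.9% lower, and 76.9% either. Against the treated osteoblasts, 6 were higher and 4 lower, where 40.3% of all genes were higher, 38.3% lower, and 78.6% either. These comparisons share the EC libraries, and the first shares the controls with the comparison of treatment. The median absolute log2 fold change of the 10 genes was 1.06 against the controls, where that of all genes was 0.72. The fold threshold was passed by 0 of the 10 genes between ECs and controls, with edgeR, DESeq2, and limma-voom alike and also at an unadjusted p under 0.05, while 13.5% of all genes passed it upward and 9.87% downward. Between ECs and treated osteoblasts, 2 of the 10 genes passed it, both downward, with 15% of all genes upward and 10.3% downward. At a log2 fold change of 1 or more in either direction, 2 of the 10 genes were higher and 3 lower in each of these comparisons. Such changes were found in 21.2% of all genes upward and 17.5% downward against the controls, and in 23.2% and 19.2% against the treated osteoblasts. The EC libraries did not overlap the control libraries for any of the 10 genes, nor the treated libraries, which 84% and 85.4% of all genes tested also showed.

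The genes higher in ECs were Mdm2, Eda2r, Zmat3, Phlda3, and Bax. Mdm2 was at 441, 446, and 436 CPM in the EC libraries, 2.96-fold above the controls and 2.76-fold above the treated osteoblasts. Its log2 fold change against the controls was 1.57 (SE 0.04, edgeR adjusted p = 1.20e-14). Eda2r was at 140.2, 144, and 126 CPM in ECs, 2.86-fold above the controls (log2 fold change 1.52, SE 0.05, edgeR adjusted p = 1.10e-13). For both genes, every EC library was above every osteoblast library. Zmat3 was at 311, 308, and 306 CPM and Phlda3 at 428, 401, and 442 CPM in ECs, with log2 fold changes of 0.83 and 0.60 against the controls and 0.98 and 0.28 against the treated osteoblasts. Bax was at 75.9, 69.2, and 74.0 CPM, a log2 fold change of 0.31 against the controls and 0.42 against the treated osteoblasts. The pro-apoptotic Bbc3, at 30.8, 27.7, and 27.4 CPM in ECs, was lower than in the controls (log2 fold change -0.25) and higher than after treatment (0.77), and the first of these calls was lost with scaling by library totals alone (edgeR adjusted p = 0.0669).

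The genes lower in ECs were Sesn1, Gdf15, and Trp53inp1. Sesn1 had a log2 fold change of -1.98 against the controls and -4.50 against the treated osteoblasts, so that treatment moved it away from the EC level. Gdf15 was at 1.97, 2.16, and 2.25 CPM in ECs, from 71 to 97 counts in each library, with log2 fold changes of -1.87 and -2.09 against the controls and the treated osteoblasts. Trp53inp1 was at 60.7, 62.7, and 50.7 CPM in ECs, with log2 fold changes of -1.28 and -1.55. For these 3 genes, all EC libraries were below all osteoblast libraries. Ccng1 was at 565, 591, and 547 CPM in ECs, all below the controls by a small margin (log2 fold change -0.16, edgeR adjusted p = 0.0109). Its p-value lay at the threshold, and the call was gained without control replicate 3 (adjusted p = 0.00532), SB216763 replicate 2 (0.00947), SB216763 replicate 3 (0.00349), or EC replicate 2 (0.00993). DESeq2 and limma-voom also called it, with adjusted p of 0.00327 and 0.00457. Against the treated osteoblasts, Ccng1 was lower in ECs (log2 fold change -0.18, edgeR adjusted p = 0.00418), and that call was lost without SB216763 replicate 1 (0.0240), SB216763 replicate 2 (0.0102), EC replicate 1 (0.0236), or EC replicate 3 (0.0196).

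Of the upstream genes, Cdkn2a, whose locus encodes the MDM2 inhibitor ARF and the CDK inhibitor p16, was singled out after its values were seen. Cdkn2a was at 27.3 ± 0.483 CPM in ECs (SD, n = 3), with 0, 1, and 0 counts in the control libraries and 0 in each treated library. Taking 3 counts per library as the limit that a count of 0 allows, which covers counting error only, Cdkn2a was at least 333-fold higher in ECs than after treatment. Trp53 was lower in ECs than in the controls, with a log2 fold change of -0.47 (edgeR adjusted p = 6.49e-08), and higher than after treatment (0.96, edgeR adjusted p = 8.71e-12). Cdkn1a was at 555, 552, and 539.8 CPM in ECs, above the controls by a log2 fold change of 0.46 (edgeR adjusted p = 3.24e-07).

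Levels of different genes were compared after division by the length of their exons, as CPM per kilobase. In the controls, Ccng1 and Phlda3 had the highest levels, at 180.2 ± 7.06 and 179.8 ± 8.25 CPM per kilobase (SD, n = 3), a difference smaller than their spread. Bbc3 and Zmat3, at 16.0 ± 0.475 and 15.1 ± 0.807, also differed by less than their SDs together. Gdf15 had the lowest, at 4.18 ± 0.276 CPM per kilobase. After treatment, Phlda3 stood above Ccng1, at 224 ± 13.3 and 183 ± 7.30 CPM per kilobase, and Sesn1 moved from rank 8 of 10, at 10.2 ± 0.376 CPM per kilobase, to rank 3, at 58.5 ± 1.47. Bbc3 came down to the level of Eda2r, at 7.90 ± 0.486 and 7.51 ± 0.0636 CPM per kilobase, within the spread of Bbc3. In ECs, Phlda3, Ccng1, and Mdm2 came first, at 272 ± 13.5, 162 ± 6.29, and 86.8 ± 0.968 CPM per kilobase, and Sesn1 was at rank 9, at 2.58 ± 0.229. From the highest to the lowest gene, the level per kilobase spanned 43.2-fold without treatment, 45.9-fold with SB216763, and 237-fold in ECs. The spread between replicates was small beside these differences, with a coefficient of variation for the 10 genes of at most 9.25% without treatment, 6.16% with SB216763, and 11.1% in ECs.

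**Figure D4:**
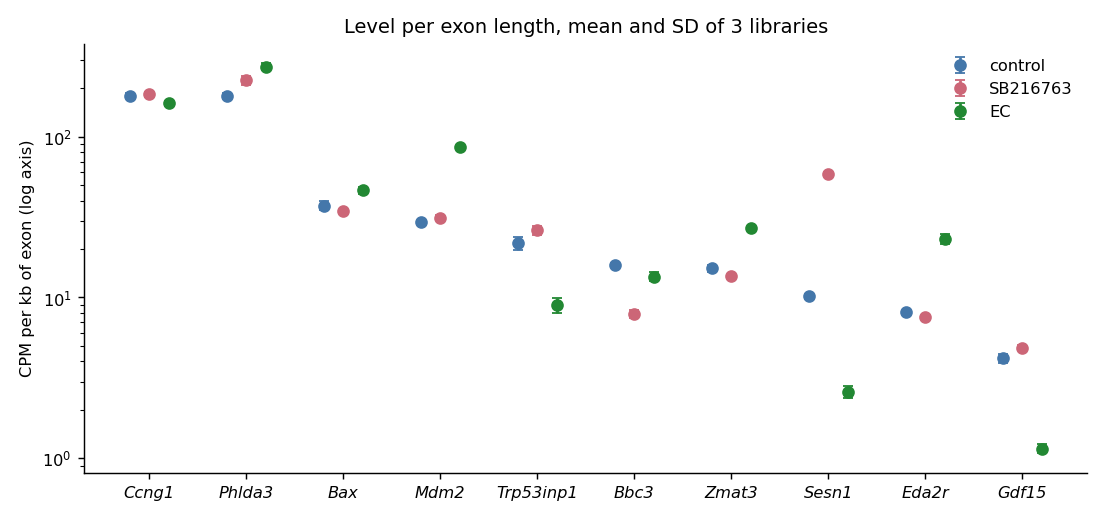
Level of each of the 10 genes in CPM per kilobase of exon, on a log axis, as the mean and SD of 3 libraries in each group, in the order of the control level. Sesn1 is the only gene of the 10 whose rank moves by more than 3 places with SB216763, from rank 8 to rank 3.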

How the data were processed

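The data were 9 RNA-Seq libraries, 3 each from control MC3T3-E1 osteoblasts, SB216763-treated MC3T3-E1 osteoblasts, and pulmonary ECs. The authors aligned and counted the reads per gene with STAR (version 2.5.3a and build GRCm38 per the submitters' processing notes) and deposited raw counts of 50686 genes without normalization. The annotation release and strand setting are not given in the sources used here. Symbols were found for 50376 identifiers. Exon lengths and coordinates are from GENCODE mouse release 21 on GRCm38, and promoter sequences from RefSeq on GRCm38.p6.

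The counts were filtered with filterByExpr, normalized by TMM, and fitted in R 4.3.3 with edgeR 4.0.16 (quasi-likelihood test, prior count 0.125, all 9 libraries, no replicate block). Each standard error (SE) is the fitted change divided by the root of its F value, and 95% intervals follow from it. The alternatives were DESeq2 1.42.0, limma-voom (limma 3.58.1), other scalings, filters, samples, and thresholds, a replicate block, and the omission of single libraries. The pipeline was also run on simulated counts with the same spread for every gene and library, unlike the data. That run therefore cannot show how reliable calls near the threshold are. Replicates of a group differed by more than the sampling noise, and unevenly so. The mean chi-square per gene between 2 libraries ran from 27.4 to 109.6 in the controls. It ran from 3.20 to 27.3 after treatment and from 2.93 to 4.73 in ECs. The cause was not tested. The depth of at least 30990107 counts per library gave each of the 10 genes at least 71 counts in every library.

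The genes and lists were chosen with earlier results of these data known. Besides the 10 genes, Cdkn1a, Trp53, and Mdm4, the text names from each list at most 3 genes in each direction with the largest change with SB216763, at an FDR under 0.01, a change of 1 or more on the log2 scale in that direction, and a mean of at least 1 CPM. Genes named for their absence, as paralogs of a named gene, or as singled out in the text are exceptions, and marker genes were named for the check of cell types.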

Additional observations from a re-analysis of the deposited data

How the results depend on the processing

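Between SB216763-treated and control osteoblasts, the changes of Sesn1, Bbc3, and Phlda3 kept their direction under every alternative. Sesn1 also kept its call under every one, Bbc3 under every one except a log2 fold change of at least 2, and Phlda3 under every one except both fold thresholds. Over all alternatives for the 10 genes in this comparison, 181 values kept direction and call, 20 lost the call, 4 gained it, and 5 reversed, and between ECs and the controls or the treated osteoblasts none reversed. The call on Zmat3 was also lost with upper-quartile scaling (edgeR adjusted p = 0.0125) and without the expression filter (0.0886). With a log2 fold change of at least 1, 2 of the 10 genes passed in this comparison, 5 between ECs and controls, and 5 between ECs and treated osteoblasts, along with 15 of the other p53 targets and 4 of the regulators. With a log2 fold change of at least 2, these numbers were 1, 0, 2, 4, and 1. The other targets and the regulators were counted with SB216763 against control. There, 11.1% of all genes tested passed a log2 fold change of 1 upward and 13% downward, and 3.81% and 5.84% passed that of 2. The shares of all genes for the comparisons with ECs are given above. When single libraries were omitted, the number of the 10 genes called ranged from 3 to 5 with SB216763, from 9 to 10 between ECs and controls, and from 9 to 10 between ECs and treated osteoblasts, and the numbers of other targets and of regulators from 34 to 36 and from 12 to 14. Scaling by library totals alone shifted the median gene by 0.20 with SB216763 and by 0.13 between ECs and controls, and it turned the log2 fold change of Bax to 0.0946, of Zmat3 to 0.0534, and of Eda2r to 0.0937. That of Ccng1 ranged from -0.0164 to 0.0556 without each library in turn. The cause of these shifts was not tested beyond the scaling itself.

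With the replicate number as a block, 5 of the 10 genes were called with SB216763, 10 between ECs and controls (Ccng1 was added), and 10 between ECs and treated osteoblasts, with 36 other targets and 16 regulators, and no call on the 10 genes was lost. The share of all genes called with the block, or with single libraries omitted, is not given here. The correlation of same-numbered libraries ranged from -0.0392 to 0.123 over the 3 comparisons. It was taken over all genes with 3 libraries per group, so it cannot tell whether same-numbered libraries share an origin. Each of the 10 genes had at least 71 counts in every library, with the fewest for Gdf15 in ECs. Whether depth limited a call, as for Gdf15 with SB216763, was not tested. Cdkn2a, Pmaip1, Perp, and the ligand and receptor genes of EDA2R and GDF15 were at or near 0 counts in the osteoblasts.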
